A study of Mus musculus with 8 samples.

Results

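The collagen genes of the mouse heart were described here: every gene in the array value table whose symbol reads Col, a number, the letter a and a number. There were 42 such genes among the 18193 genes with a probe set of their own, and together they had 82 probe sets. Where a gene had several, the brightest on average over all 8 arrays stood for it. By structural class they comprised 11 fibrillar collagen genes, 6 genes of the type IV basement membrane network, 2 of the basement membrane associated types XV and XVIII, and 23 genes of other types. The study hybridised heart RNA of 8 female mice, 1 mouse per array, to Affymetrix mouse expression arrays, which use 1 colour and report a fluorescence intensity per probe set. The groups were 10-week-old KO, 10-week-old WT, 4-week-old KO and 4-week-old WT mice, with 2 mice each. KO mice carried a conditional gene deletion labelled MCK, for the muscle creatine kinase promoter, which is active in striated muscle cells. Their WT littermates have no deletion per their label, and whether they carried the driver is not given in the sources used here. The 4 mice of each age were littermates, so that age and litter cannot be told apart. The arrays bear no further batch label.

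Collagens are proteins of the extracellular matrix whose chains wind around each other in a helix. Types I and III form the fibrils between heart muscle cells, type V is built into these fibrils and limits their width, and type IV forms the sheet-like network of the basement membrane around muscle cells and capillaries. In the heart, fibrillar collagen is made mainly by fibroblasts, and it accumulates in fibrosis. Since whole hearts were measured, more cells of a type and more RNA per cell cannot be told apart.

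Promoters of 4 genes with higher intensity in 10-week KO hearts show how different the sequences before the start of such genes are. They were taken from RefSeq (build GRCm38.p6), whose promoter table matched 33 of the 42 genes with 36 promoters. Each is the 250 bases before the annotated start, 5′ to 3′ on the gene's strand. Capitals mark matches to the CCAAT box (letters CCAAT), the GC box (GGGCGG), the TATA box (TATAAA) or the AP-1 motif (TGANTCA), searched on both strands, so that a match on the opposite strand appears as its reverse complement. Adjacent GGGCGG matches may overlap. The positions are chr1:45311288-45311537 (plus strand) for Col3a1, chr6:4505368-4505617 (plus strand) for Col1a2, chr16:57754738-57754987 (minus strand) for Col8a1 and chr4:126286544-126286793 (plus strand) for Col8a2.
Col3a1: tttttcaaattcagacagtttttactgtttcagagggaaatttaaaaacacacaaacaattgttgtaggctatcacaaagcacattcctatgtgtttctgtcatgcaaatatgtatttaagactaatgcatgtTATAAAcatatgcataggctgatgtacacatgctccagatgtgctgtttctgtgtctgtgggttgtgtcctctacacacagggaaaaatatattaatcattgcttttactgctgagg
Col1a2: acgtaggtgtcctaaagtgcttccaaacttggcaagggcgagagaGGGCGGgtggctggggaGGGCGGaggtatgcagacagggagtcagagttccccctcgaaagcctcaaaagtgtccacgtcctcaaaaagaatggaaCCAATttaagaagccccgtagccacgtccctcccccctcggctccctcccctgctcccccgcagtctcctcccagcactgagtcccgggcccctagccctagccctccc
Col8a1: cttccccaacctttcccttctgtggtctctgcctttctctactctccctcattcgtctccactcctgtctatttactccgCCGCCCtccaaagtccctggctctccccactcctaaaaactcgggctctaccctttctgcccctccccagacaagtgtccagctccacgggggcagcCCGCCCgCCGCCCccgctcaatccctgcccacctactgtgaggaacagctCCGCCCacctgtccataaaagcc
Col8a2: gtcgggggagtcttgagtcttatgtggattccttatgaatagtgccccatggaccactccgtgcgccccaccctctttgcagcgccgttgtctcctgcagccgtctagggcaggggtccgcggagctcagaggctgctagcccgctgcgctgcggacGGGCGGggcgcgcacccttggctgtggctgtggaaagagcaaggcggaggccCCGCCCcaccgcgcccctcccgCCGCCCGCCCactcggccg

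The Col3a1 window held a TATAAA 117 bases before the start and had a GC content of 35.2%. The Col1a2 window held GGGCGG in 2 places and CCAAT once, 109 bases before the start, with a GC content of 62%. Both type VIII genes had 4 GGGCGG matches each and a GC content of 60.8% for Col8a1 and 70% for Col8a2. GGGCGG was present in 21 of the 36 collagen promoters (58.3%), against 32.7% of all 32851 promoters of that length. CCAAT was in 36.1% of the collagen promoters, against 33.8% of all promoters, TATAAA in 13.9% against 12.4%, and TGANTCA in 2.78% against 6.75%. Of the 6 genes called at 10 weeks that had a promoter in the table, 4 had the GC box, and 1 each had the CCAAT box, the TATA box or the AP-1 motif. A match describes these letters in this window and is not a binding site.

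Intensities are given on the log2 scale throughout, and differences are log2 differences, so that 1 is a doubling. Every p-value is limma's, from 1 fit of the 4 group means over all 8 arrays, adjusted by the Benjamini-Hochberg method over all 18193 genes. A gene was called where its adjusted p was under 0.05. The p-values measure the spread between the 2 mice of each group. Intensities of different probe sets are not comparable as RNA amounts, so genes were ordered by difference. As a check of the heart label, Myh6 and Tnnt2, the cardiac myosin and troponin T genes, had intensities between 13.16 and 14.10 on the 8 arrays. Liver transcripts differed between arrays of the same group. The summed intensity of Alb, Apoa1 and Ttr was 3865 on 4-week KO array 2, 3704 on 10-week WT array 1 and 2564 on 4-week WT array 2, and 129 to 879 on the other 5 arrays. Its part in the collagen values was not tested.

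At 10 weeks 9 of the 42 collagen genes were higher in KO than in WT hearts and none was lower. Over all genes, 5.19% were called higher and 6.89% lower. The genes called were 5 fibrillar ones (Col1a1, Col1a2, Col3a1, Col5a1 and Col5a2), both type VIII genes (Col8a1 and Col8a2), Col14a1 and Col6a1. Their differences corresponded to 1.49-fold to 12-fold higher intensity in KO hearts. The other 33 genes had differences between -0.17 and 0.96. At an unadjusted p under 0.05, 12 collagen genes were higher and 0 lower, against 11.3% and 12.2% of all genes. Both KO arrays lay above both WT arrays for 19 collagen genes, against 23.7% of all genes, and below them for 1, Col11a2, against 23.5% of all genes. The median difference of the collagen genes was 0.15, against 0.00 over all genes. The count of 9 fell without 10-week WT array 1, either 10-week KO array or either 4-week WT array. It rose without 10-week WT array 2. The count over all genes moved the same way, so this is not particular to collagen genes.

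At 4 weeks 0 of the 42 collagen genes were called in either direction by limma, while 0.0275% of all genes were called. At an unadjusted p under 0.05, 5 were higher in KO hearts and 0 lower, against 1.79% and 1.95% of all genes. Both KO arrays lay above both WT arrays for 15 collagen genes, against 19.4% of all genes, and below them for 0, against 17.5% of all genes. The differences were small, from -0.20 to 0.54. They were above 0 in 39 of 42 genes (92.9%), against 53.4% of all genes, with a median of 0.19 against 0.01. This included all 17 genes whose mean was at the level of olfactory receptor genes, which heart is not expected to use, that is at or under 5.68, the 95th percentile of 39 such genes. Of the olfactory receptor genes themselves, 53.8% were above 0, and of all 7780 genes at their level 62.8% were, with a median of 0.04. Of the 5 collagen genes higher at limma's unadjusted p under 0.05, 4 were at this level and 1 was above it.

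**Figure D1:**
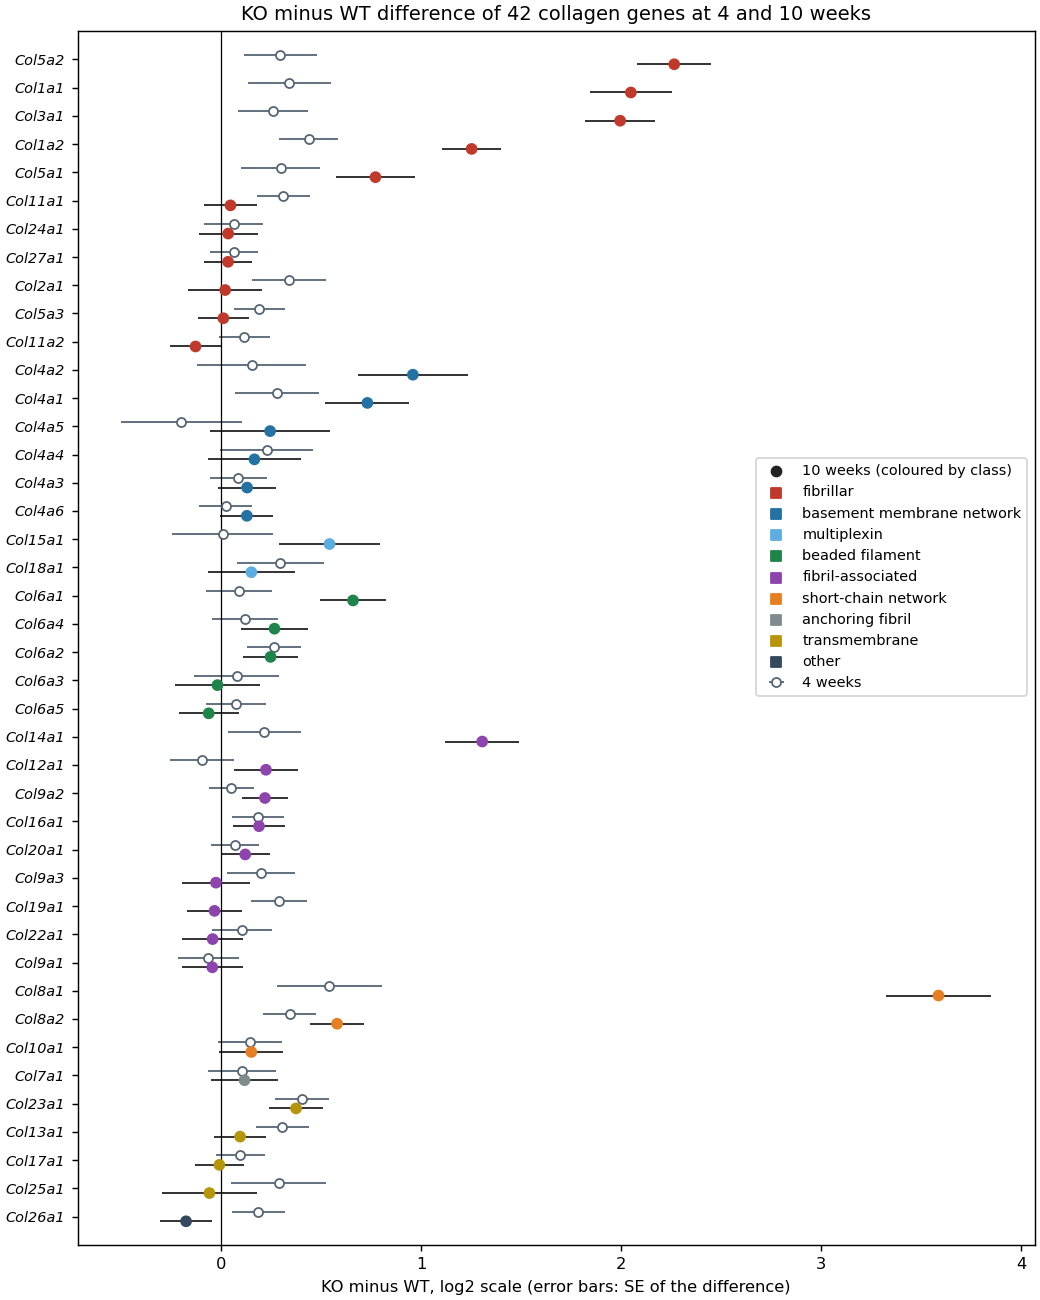
KO minus WT difference in log2 intensity (horizontal axis) of each of the 42 collagen genes, grouped by class, with open circles for 4 weeks, filled circles for 10 weeks and bars for the SE of the difference. At 10 weeks 6 genes lie past 1 (Col8a1, Col5a2, Col1a1, Col3a1, Col14a1 and Col1a2), and none does at 4 weeks.

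Among the fibrillar collagens, 5 of 11 genes were higher in 10-week KO hearts. They were the genes of types I and III, which make up the bulk of heart fibrils, and 2 of the 3 measured genes of type V. Col3a1, the single chain of type III collagen, had 11.50 and 11.49 on the 10-week KO arrays and 9.35 and 9.66 on the 10-week WT arrays. On the 4-week arrays it had 11.75 and 11.93 in KO hearts and 11.35 and 11.81 in WT hearts. The 10-week WT arrays thus stood apart from the other 6, which spanned less than a unit. KO exceeded WT at 10 weeks by 1.99 ± 0.17 (SE, adjusted p = 0.00021), and by 0.26 ± 0.17 at 4 weeks, where the groups overlapped.

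Col1a1 and Col1a2 encode the alpha 1 and alpha 2 chains of type I collagen. Col1a1 had 8.65 and 8.61 on the 10-week KO arrays and 6.45 and 6.71 on the 10-week WT arrays, a difference of 2.05 ± 0.21 (SE, adjusted p = 0.00042). Its 4-week values were 8.87 and 9.20 in KO hearts and 8.38 and 9.004 in WT hearts, which overlapped. Again the 10-week WT arrays were the low ones. Col1a2 had 9.94 and 9.79 on the 10-week KO arrays and 8.51 and 8.72 on the 10-week WT arrays, a difference of 1.25 ± 0.15 (SE, adjusted p = 0.00089). At 4 weeks it had 9.87 and 9.99 in KO hearts and 9.34 and 9.65 in WT hearts, without overlap, and the difference of 0.44 ± 0.15 was not called.

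Col5a2, the alpha 2 chain of type V, differed most among the fibrillar genes. Its 10-week values were 9.98 and 9.91 in KO hearts and 7.45 and 7.90 in WT hearts, and its 4-week values were 9.09 and 9.41 in KO hearts and 8.79 and 9.11 in WT hearts. Here the 10-week KO arrays were the highest of the 8 and the 10-week WT arrays the lowest. The 10-week difference was 2.26 ± 0.18 (SE, adjusted p = 0.00014). Col5a1, its partner chain, had 7.78 and 7.65 on the 10-week KO arrays and 6.79 and 7.10 on the 10-week WT arrays. At 4 weeks it had 8.10 and 8.73 in KO hearts and 8.11 and 8.12 in WT hearts, so both genotypes were lower at the later age. Its 10-week difference of 0.77 ± 0.20 (SE, adjusted p = 0.033) was not called without any one of 5 arrays: 0.71 without 10-week KO array 1, 0.84 without 10-week KO array 2, 0.62 without 10-week WT array 1, and an unmoved 0.77 with an adjusted p of 0.072 without either 4-week WT array. Col3a1 and Col5a2 are neighbours on chromosome 1. The remaining 6 fibrillar genes (Col2a1, Col5a3, Col11a1, Col11a2, Col24a1 and Col27a1) had 10-week differences between -0.13 and 0.05.

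**Figure D2:**
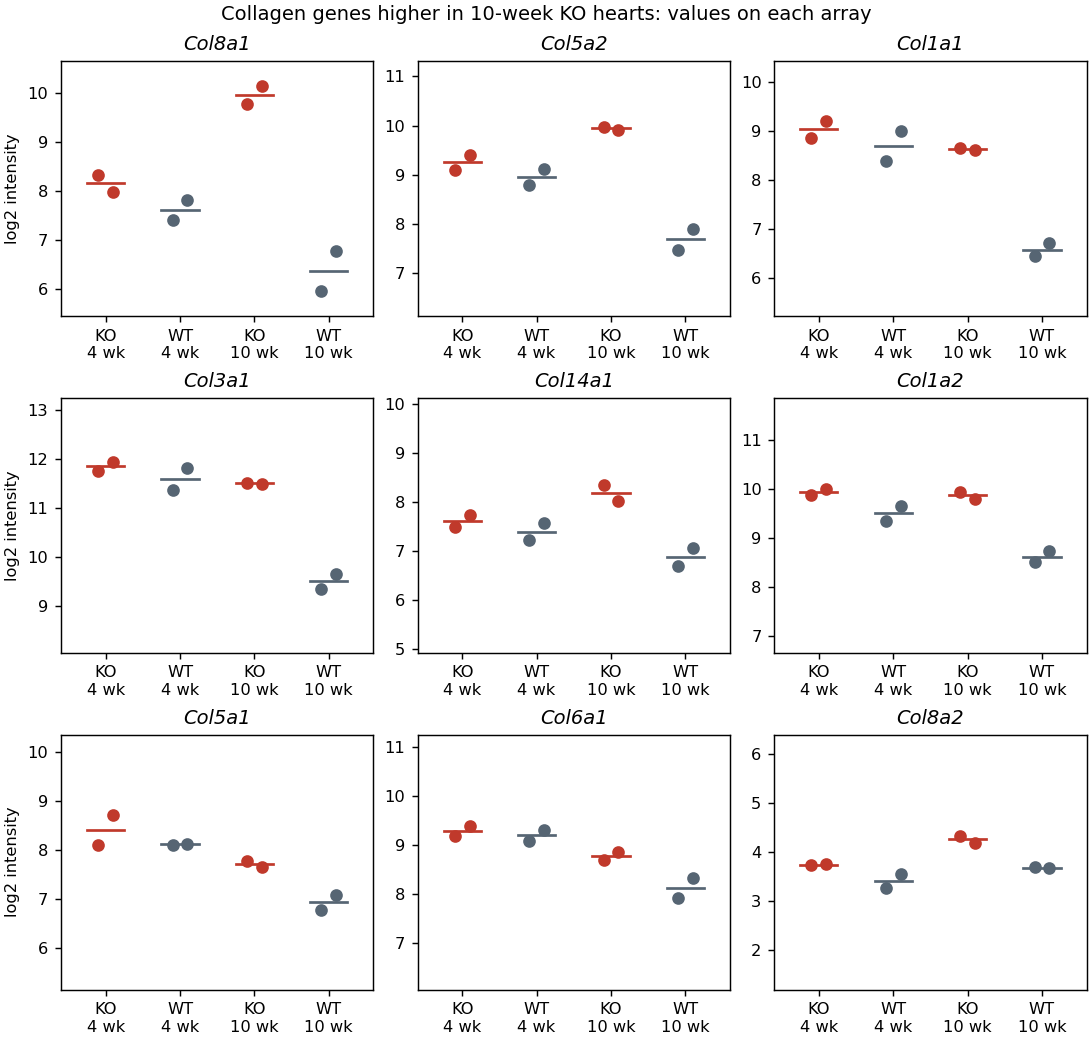
Log2 intensity (vertical axis, the same span in every panel) of the 9 collagen genes called higher in 10-week KO hearts, 1 point per array and a line at each group's mean. The 10-week WT arrays are the lowest for 8 of the 9 genes, and for Col8a2 the 4-week WT arrays are lowest.

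Type VIII collagen, a short-chain collagen that forms network-like sheets beneath vessel linings, gave the largest difference of the 42 genes. Col8a1, its alpha 1 chain, had 9.78 and 10.13 on the 10-week KO arrays and 5.97 and 6.78 on the 10-week WT arrays. Its 4-week values were 8.33 and 7.98 in KO hearts and 7.42 and 7.82 in WT hearts. The KO arrays were above the WT arrays at both ages, and the 10-week KO arrays were above all others. The 10-week difference was 3.59 ± 0.26 (SE, adjusted p = 8.2e-05), and the 4-week difference of 0.54 ± 0.26 was not called.

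Col8a2, the alpha 2 chain, had 4.33 and 4.19 on the 10-week KO arrays and 3.70 and 3.66 on the 10-week WT arrays, with 3.73 and 3.74 in 4-week KO hearts and 3.25 and 3.54 in 4-week WT hearts. All 8 values were at the level of olfactory receptor genes. Its 10-week difference of 0.58 ± 0.13 (SE, adjusted p = 0.021) was 0.51 without 10-week KO array 1 (adjusted p = 0.13) and 0.65 without 10-week KO array 2 (adjusted p = 0.057). With 16 added before the logarithm it was 0.29 (adjusted p = 0.0501), and it was not called with array weights or with only the groups compared either. Col10a1, the type X gene of growth-plate cartilage, differed by 0.15 ± 0.16 and was not called.

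Among the fibril-associated collagens, which bind to the surface of fibrils, 1 of 9 genes was higher. Col14a1 had 8.35 and 8.02 on the 10-week KO arrays and 6.70 and 7.06 on the 10-week WT arrays, with 7.50 and 7.72 in 4-week KO hearts and 7.22 and 7.56 in 4-week WT hearts. The 10-week KO arrays were the highest and the 10-week WT arrays the lowest, and the difference was 1.31 ± 0.18 (SE, adjusted p = 0.0021). Col20a1 had the highest mean intensity of this class, with 7.80 and 7.74 on the 10-week KO arrays and 7.66 and 7.64 on the 10-week WT arrays. Its 4-week values were 7.63 and 7.43 in KO hearts and 7.48 and 7.43 in WT hearts. All 8 lay close together, and the 10-week difference of 0.12 ± 0.12 was not called. Col12a1, a near relative of Col14a1, differed by 0.23 ± 0.16 and was not called.

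Type VI collagen forms beaded filaments close to cell surfaces, and 1 of its 5 genes was higher in KO hearts. Col6a1 had 8.70 and 8.86 on the 10-week KO arrays and 7.92 and 8.32 on the 10-week WT arrays, and at 4 weeks 9.19 and 9.40 in KO hearts and 9.10 and 9.31 in WT hearts. Both genotypes were lower at 10 weeks, the WT arrays more so. The difference of 0.66 ± 0.16 (SE, adjusted p = 0.029) was not called without any one of the same 5 arrays as for Col5a1: 0.74 without 10-week KO array 1, 0.58 without 10-week KO array 2, 0.46 without 10-week WT array 1, and 0.66 with an adjusted p of 0.056 without either 4-week WT array. Col6a2, which adjoins Col6a1 on chromosome 10 and encodes another chain of the same molecule, had 9.20 and 9.24 on the 10-week KO arrays and 8.85 and 9.09 on the 10-week WT arrays. Its 4-week values were 10.01 and 10.12 in KO hearts and 9.69 and 9.91 in WT hearts. The groups did not overlap at either age, but the difference was 0.25 ± 0.14 at 10 weeks and not called. Col6a3, the third chain, differed by -0.02 ± 0.21.

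Of the 8 basement membrane genes (types IV, XV and XVIII), 0 were called at 10 weeks, with 2 higher at an unadjusted p under 0.05. All 8 differences were above 0, with a median of 0.21, while 50.8% of all genes were above 0. Col4a2, with Col4a1 the main type IV chain of most tissues, had 10.22 and 10.48 on the 10-week KO arrays and 8.88 and 9.90 on the 10-week WT arrays. At 4 weeks it had 10.81 and 10.85 in KO hearts and 10.57 and 10.78 in WT hearts. The genotypes did not overlap, and 10-week WT array 1 was about a unit below its partner. The difference was 0.96 ± 0.27 (SE, adjusted p = 0.051), close to the threshold.

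Col4a1 had 10.02 and 10.06 on the 10-week KO arrays and 8.96 and 9.66 on the 10-week WT arrays, against 10.66 and 10.86 in 4-week KO hearts and 10.36 and 10.61 in 4-week WT hearts. The same WT array was the low one, and the 10-week difference was 0.73 ± 0.21 (SE, adjusted p = 0.053). Without 10-week WT array 2 both genes were called, with 1.47 for Col4a2 and 1.08 for Col4a1. Both were also called with the arrays quantile-normalized again, at 1.07 and 0.85, with the mouse number as a block and with dim genes left out, and Col4a2 with array weights or with trend and robust settings. Without 10-week WT array 1 the differences were 0.45 for Col4a2 and 0.38 for Col4a1. These neighbours on chromosome 8 had their lowest value on the same array, 10-week WT array 1. That array was also the lowest of the 8 for other collagen genes, among them Col1a1, Col3a1, Col5a2 and Col8a1. The shared low array is thus not particular to this pair. Col15a1 had 6.66 and 7.25 on the 10-week KO arrays and 6.17 and 6.65 on the 10-week WT arrays, with 7.54 and 7.45 in 4-week KO hearts and 7.18 and 7.80 in 4-week WT hearts. Its 10-week difference of 0.54 ± 0.25 was not called.

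The anchoring fibril gene Col7a1, the 4 transmembrane collagen genes and Col26a1 gave no call. Col7a1, whose product ties the skin's basement membrane to the dermis, had 5.83 and 5.56 on the 10-week KO arrays and 5.73 and 5.43 on the 10-week WT arrays, which overlapped. At 4 weeks it had 5.48 and 5.19 in KO hearts and 5.11 and 5.35 in WT hearts. Col25a1, a transmembrane collagen of neurons, had 6.87 and 6.77 on the 10-week KO arrays and 7.14 and 6.61 on the 10-week WT arrays, and 7.24 and 6.54 in 4-week KO hearts with 6.52 and 6.67 in 4-week WT hearts. The genotypes overlapped at both ages. Col26a1 had 4.76 and 4.68 on the 10-week KO arrays and 5.04 and 4.76 on the 10-week WT arrays, with 4.88 and 4.82 in 4-week KO hearts and 4.69 and 4.64 in 4-week WT hearts. Its direction was opposite at the 2 ages, with -0.17 ± 0.13 at 10 weeks and 0.19 ± 0.13 at 4 weeks, and neither was called. Col23a1, a transmembrane collagen, was 0.37 ± 0.13 higher at 10 weeks and 0.41 ± 0.13 higher at 4 weeks, without overlap at either age and without a call.

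The calls lay mostly among probe sets of higher intensity. Of the 25 collagen genes above the olfactory receptor level, 8 were called at 10 weeks, and of the 17 at or under it, 1 (Col8a2). Tested again without the genes at that level, 10 collagen genes and 894 of 10413 genes in all were higher. With every gene in the test, 945 of 18193 were higher. The lean towards brighter probe sets is therefore not shown to be particular to collagen genes. For a gene at this level, the lack of a call does not show that its transcript was unchanged.

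**Figure D3:**
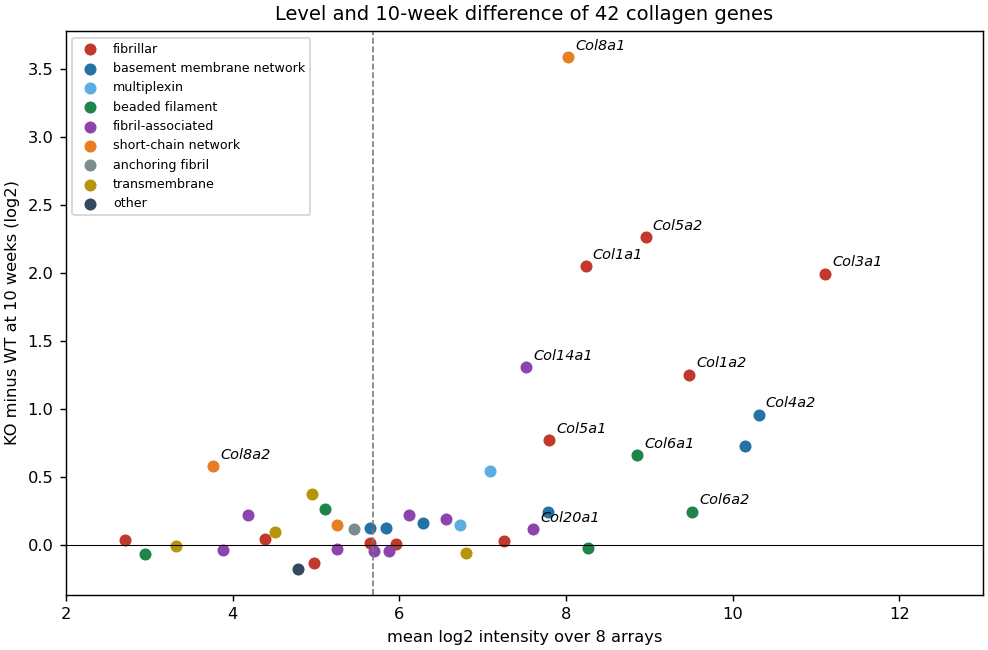
Mean log2 intensity over the 8 arrays (horizontal axis) and 10-week KO minus WT difference (vertical axis, log2) of the 42 collagen genes, coloured by class. The dashed line is the olfactory receptor level of 5.68, and 8 of the 9 genes called lie to its right.

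For the genes called at 10 weeks, further probe sets had differences above 0, most of another size. Of the 9 genes called at 10 weeks, Col6a1 and Col8a2 had 1 probe set only. The 2 further probe sets of Col8a1 gave 3.10 and 2.59, and the further one of Col5a2 gave 2.26, equal to the one used. For Col3a1 the further probe set gave 3.36, with 7.43 and 7.35 on the 10-week KO arrays and 3.95 and 4.10 on the 10-week WT arrays. For Col1a1 it gave 1.13. The 2 further probe sets of Col1a2 gave 2.61 and 0.27, those of Col14a1 gave 0.74 and 0.14, and those of Col5a1 gave 0.34 and 0.11, so that the size of these differences depended on the probe set by more than 1.5-fold. With all 82 collagen probe sets tested singly, 17 from 10 genes were higher in KO hearts at 10 weeks and 0 were lower. The tenth gene was Col12a1, where 1 dimmer probe set had 5.23 and 4.74 on the 10-week KO arrays and 4.04 and 4.03 on the 10-week WT arrays. In 6 of the 27 genes with several probe sets, a further one had the opposite sign: Col4a3, used at 0.13, Col5a3 at 0.01, Col9a3 at -0.03, Col19a1 at -0.03, Col20a1 at 0.12 and Col22a1 at -0.04, and none of these was called with any probe set.

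**Figure D4:**
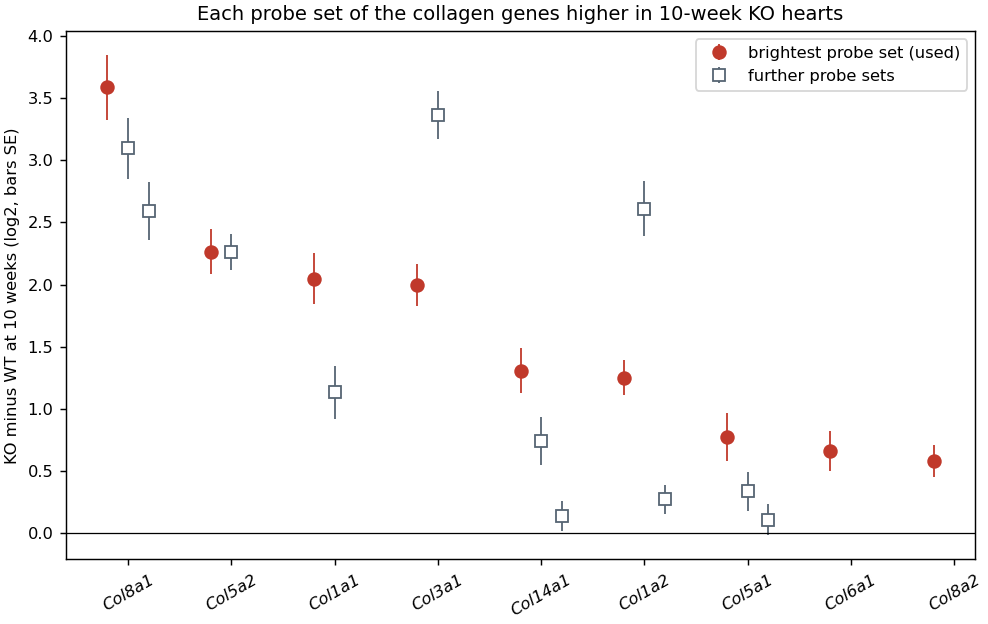
10-week KO minus WT difference (log2, bars SE) of every probe set of the 9 collagen genes called, with filled circles for the probe set used and open squares for further ones. All lie above 0, and those of Col1a2 span 0.27 to 2.61.

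The KO minus WT difference was larger at 10 than at 4 weeks for 4 of the 42 collagen genes, as tested by the difference of the differences, against 0.879% of all genes in that direction. The 4 genes were Col8a1 by 3.05 ± 0.37 (SE, adjusted p = 0.0062), Col5a2 by 1.97 ± 0.26 (adjusted p = 0.0099), Col3a1 by 1.73 ± 0.25 (adjusted p = 0.012) and Col1a1 by 1.71 ± 0.29 (adjusted p = 0.024). Col14a1 at 1.09 ± 0.26 (adjusted p = 0.074) and Col1a2 at 0.81 ± 0.21 (adjusted p = 0.091) were not called. The difference was smaller for 0 by limma, against 1.2% of all genes, and at an unadjusted p under 0.05 it was larger for 7 and smaller for 0, against 6.53% and 7.4% of all genes. The 4 calls depended on single arrays. Without 4-week WT array 2 none of the 4 was called, with 2.85 for Col8a1, 1.81 for Col5a2, 1.51 for Col3a1 and 1.40 for Col1a1. Without 4-week KO array 2 only Col5a2 was called, without 4-week KO array 1 or 10-week KO array 1 only Col8a1 and Col5a2 were, without 10-week KO array 2 Col1a1 was not, and without 10-week WT array 2 the count was 9. Calls over all genes moved with single arrays too. Col1a1 also lost its call with the mean of its 2 probe sets, at 1.18.

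The 2 ages were also compared within each genotype. In KO hearts 3 collagen genes were higher and 5 lower at 10 than at 4 weeks, where 3.42% of all genes were higher and 7.07% lower. In WT hearts 3 were lower and 0 higher, where 0.066% of all genes were lower and 0.0495% higher. The 2 comparisons share no arrays, but their p-values are not independent. They come from the same fit, which pools the spread within all groups. Leaving out an array of the other genotype can therefore change a call while the difference stays the same. At an unadjusted p under 0.05, 7 were higher and 8 lower in KO hearts, against 11.1% and 14.2% of all genes. In WT hearts 4 were higher and 16 lower, against 8.31% and 9.75% of all genes. The 10-week arrays did not overlap the 4-week arrays and lay above them for 16 collagen genes and below for 14 in KO hearts, where these shares were 32.2% and 25.5% over all genes. In WT hearts they lay above for 17 and below for 17, where the shares were 31.2% and 23.8% over all genes. The counts of collagen genes moved with single arrays. In KO hearts they rose without either 10-week WT array, although the differences themselves did not change, and fell without any one of the other 6. In WT hearts the count lower fell without 10-week WT array 1, either 4-week WT array or either 10-week KO array. The counts higher and lower there both rose without 10-week WT array 2. Without 10-week WT array 1 the count lower over all genes in WT hearts stayed the same. In the other cases the counts over all genes moved the same way, so those shifts are not particular to collagen genes. With the arrays quantile-normalized again, the genes called over the whole table in KO hearts were 915 higher and 1098 lower, against 622 higher and 1286 lower.

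The 3 genes lower in 10-week WT hearts were fibrillar. Col1a1 changed by -0.40 ± 0.21 in KO hearts, which was not called, and by -2.11 ± 0.21 in WT hearts (SE, adjusted p = 0.0068). Col3a1 changed by -0.34 ± 0.17 in KO hearts, which was not called, and by -2.08 ± 0.17 in WT hearts (SE, adjusted p = 0.0035). Col5a2 changed by 0.69 ± 0.18 in KO hearts (SE, adjusted p = 0.043) and by -1.27 ± 0.18 in WT hearts (SE, adjusted p = 0.049). Col1a1 was not called in WT hearts without 4-week WT array 2, at -1.80. Col5a2 was close to the threshold and, without any one of the arrays other than 10-week WT array 2, was not called in WT hearts, at -1.43 to -1.05. In KO hearts it was not called without any one of the 6 arrays other than the 10-week WT ones, at 0.54 to 0.85.

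Col8a1 had the largest difference above 0 between the ages in KO hearts, at 1.80 ± 0.26 (SE, adjusted p = 0.0031), and it stayed called without any one array. In WT hearts it changed by -1.24 ± 0.26, which was not called. Col8a2 was 0.52 ± 0.13 higher in 10-week KO hearts (SE, adjusted p = 0.038) and not called without any one of 6 arrays, at 0.45 to 0.59. Its call was also lost with the arrays quantile-normalized again, with centring on their medians and with 16 added before the logarithm. The olfactory receptor genes, whose level it shares, had a median of 0.18 in that comparison, with 89.7% above 0. Of the 9 genes called between the genotypes at 10 weeks, 8 had both 10-week WT arrays below both 4-week WT arrays, against 23.8% of all genes, and Col8a2 had them above. These 9 genes were chosen through the same 10-week arrays, so this count is a description. In KO hearts the 10-week arrays of 4 of the 9 genes were above the 4-week ones, those of 4 below, and those of 1 overlapped, against 32.2% above and 25.5% below over all genes.

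The 5 genes called lower at 10 weeks in KO hearts were also below their 4-week level in WT hearts, without a call there. Col6a2 changed by -0.85 ± 0.14 in KO hearts (SE, adjusted p = 0.0047) and by -0.83 ± 0.14 in WT hearts (adjusted p = 0.074). Col6a3, with 7.90 and 7.54 on the 10-week KO arrays against 8.69 and 8.99 on the 4-week KO arrays, changed by -1.12 ± 0.21 in KO hearts (SE, adjusted p = 0.011) and by -1.02 ± 0.21 in WT hearts (adjusted p = 0.12). Col4a5, a type IV chain of kidney and muscle basement membranes, changed by -1.10 ± 0.30 in KO hearts (adjusted p = 0.049) and by -1.54 ± 0.30 in WT hearts (adjusted p = 0.12). Col4a4 changed by -0.86 ± 0.23 in KO hearts (adjusted p = 0.045) and by -0.80 ± 0.23 in WT hearts (adjusted p = 0.21). Col5a3 changed by -0.47 ± 0.13 in KO hearts (adjusted p = 0.048) and by -0.29 ± 0.13 in WT hearts (adjusted p = 0.28). Of the further probe sets, those of Col4a4 lay at -0.95 and 0.06 in KO hearts, that of Col4a5 at -0.53 and that of Col5a3 at -0.01, and none was called. With a mean over their probe sets these 3 genes were not called, at -0.58 for Col4a4, -0.82 for Col4a5 and -0.24 for Col5a3, nor were they with every probe set tested singly. All 5 lost their call without 4-week KO array 2, at -0.80 for Col6a2, -0.97 for Col6a3, -0.87 for Col4a5, -0.52 for Col4a4 and -0.38 for Col5a3. Col6a3 also lost it without 10-week KO array 2, at -0.94, and the last 3 without either 10-week KO array or either 4-week WT array, at -1.19 to -0.42. Col4a5 and Col5a3 lost it without 4-week KO array 1 as well, at -1.33 and -0.55. For none of the 5 was the KO minus WT difference called at either age.

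Col4a1 and Col4a2 were also lower at 10 weeks, by limma without a call: Col4a1 changed by -0.72 ± 0.21 in KO hearts and -1.17 ± 0.21 in WT hearts, and Col4a2 by -0.48 ± 0.27 in KO hearts and -1.29 ± 0.27 in WT hearts. Both were called in WT hearts without 10-week WT array 2, at -1.53 for Col4a1 and -1.80 for Col4a2, and in KO hearts without either 10-week WT array. Col5a1 at -1.17 ± 0.20, Col6a1 at -1.08 ± 0.16 and Col15a1 at -1.07 ± 0.25 were further genes with a WT change beyond 1 and no call. Of the 17 collagen genes at the olfactory receptor level, 16 were above 0 between the ages in WT hearts, with a median of 0.28, while 57.2% of all genes were above 0. The olfactory receptor genes had a median of 0.14 in that comparison, with 79.5% above 0, so that dim probe sets as a whole stood slightly higher at 10 weeks.

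**Figure D5:**
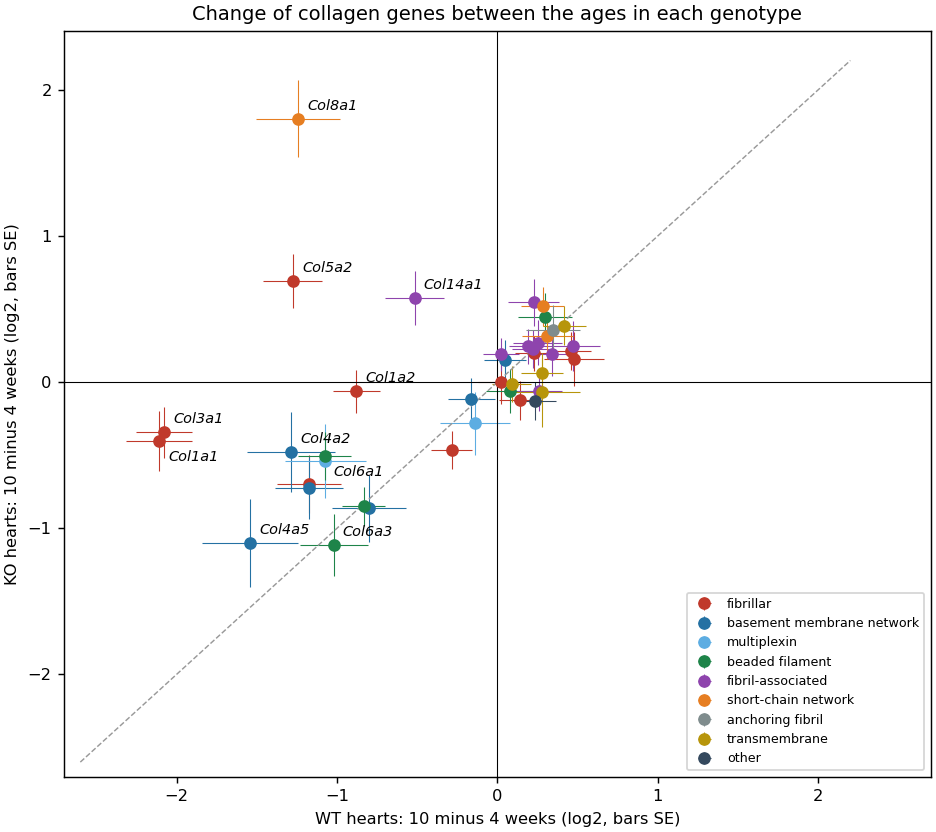
Difference between 10 and 4 weeks in log2 intensity of the 42 collagen genes in KO hearts (vertical axis) and WT hearts (horizontal axis), bars SE, coloured by class. The dashed line marks equal change. Col8a1 and Col5a2 lie above 0 in KO hearts and below 0 in WT hearts, while Col6a2, Col6a3 and Col4a4 lie near the line.

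Genes that process, cross-link, bind and break down collagen were read from the same fit. Of 52 listed genes 47 were measured, and at 10 weeks 9 were higher and 3 lower in KO hearts, where 5.19% of all genes were higher and 6.89% lower. Their median was 0.18 against 0.00 over all genes. The share lower was close to that of all genes. Cross-linking and propeptide-removal genes held 4 of the 9. Lox, the lysyl oxidase that starts collagen cross-links, had 8.43 and 7.61 on the 10-week KO arrays and 5.06 and 5.20 on the 10-week WT arrays, with 6.04 and 6.07 in 4-week KO hearts and 5.999 and 5.97 in 4-week WT hearts. The 10-week KO arrays stood above all others. Its difference was 2.89 ± 0.22 (SE, adjusted p = 0.0001), with 1.46 ± 0.26 for Loxl1, 1.31 ± 0.12 for Loxl3 and 1.07 ± 0.17 for Pcolce, which enhances procollagen C-proteinase. Without 10-week KO array 2, Loxl1 stood at 1.37 and was not called.

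Of 15 measured hydroxylases, chaperones and other genes that modify or fold collagen chains in the cell, 2 were higher and 3 lower. The prolyl 4-hydroxylase subunits P4ha1 and P4ha2 were lower in 10-week KO hearts, by -1.15 ± 0.22 (adjusted p = 0.0081) and -0.77 ± 0.17 (adjusted p = 0.019). Without 10-week KO array 2 they were not called, at -1.16 and -0.65, nor was P4ha1 without 10-week KO array 1, at -1.15. P4ha1 had 7.09 and 7.09 on the 10-week KO arrays and 7.86 and 8.62 on the 10-week WT arrays. The prolyl 3-hydroxylase P3h2 was higher by 0.97 ± 0.13 and the lysyl hydroxylase Plod2 by 0.73 ± 0.17, while Plod1 was lower, at -0.60 ± 0.17 (adjusted p = 0.048). Plod1 lost its call without any one array other than 10-week WT array 1, at -0.64 to -0.36. Plod2 lost it without either 10-week KO array, either 4-week WT array or 10-week WT array 1, at 0.45 to 0.74.

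Among receptors, 1 of 8 was higher, the collagen-binding integrin chain Itga1 at 1.13 ± 0.25. Among 6 breakdown genes, Ctsk, cathepsin K, at 1.23 ± 0.17 and Mmp2, gelatinase A, at 0.90 ± 0.22 were higher. Itga1 was not called without 10-week KO array 2, at 0.75, or 10-week WT array 1, at 0.82, and Mmp2 not without either 10-week KO array or 10-week WT array 1, at 0.63 to 0.91. Of the 9 basement membrane partner genes 0 were called at 10 weeks, the smallest p-values being those of Lamb2 at 0.45 ± 0.18 and Lama5 at -0.28 ± 0.13. At 10 against 4 weeks 4 of the 9 were called lower in KO hearts, against 7.07% of all genes. In WT hearts 0 were, against 0.066% of all genes. Their median change between the ages was -0.59 in KO hearts and -0.69 in WT hearts. The count of listed genes higher in KO hearts fell most without 10-week KO array 2 and rose without 10-week WT array 2. The count lower fell without either 10-week KO array. For these omissions the counts over all genes moved the same way. Itga1, Mmp2, Plod1 and Plod2 lost their calls without further arrays too, as given above. Plod1 did so without 10-week WT array 2, at -0.36, where the count lower over all genes rose.

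Markers of cell types were read on the same arrays, where 5.19% of all genes were called higher and 6.89% lower in 10-week KO hearts. Of 5 fibroblast markers 3 were higher in 10-week KO hearts, Dcn by 1.02 ± 0.18, Tcf21 by 0.74 ± 0.16 and Lum by 0.62 ± 0.13, while Pdgfra at 0.24 ± 0.20 and Dpt at -0.07 ± 0.15 were not called. Their summed intensity was 11565 and 11333 on the 10-week KO arrays, 5947 and 7598 on the 10-week WT arrays, and 7723 to 8947 on the 4-week arrays. Of 4 activated fibroblast markers 2 were higher, Postn and Cthrc1 by 3.67 ± 0.20 and 2.12 ± 0.15, while Acta2 at -0.08 ± 0.20 and Fap at 0.27 ± 0.20 were not called.

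Of 4 macrophage markers 3 were higher in 10-week KO hearts, against 5.19% of all genes. Their summed intensities were 3062 and 2457 on the 10-week KO arrays and 1295 and 1473 on the 10-week WT arrays. Of 4 endothelial and 3 pericyte markers 0 were called, and of 3 smooth muscle markers 1, Tagln, was higher at 0.58 ± 0.12. Of 4 cardiomyocyte markers Tnni3 at -0.52 ± 0.12 and Ryr2 at -1.27 ± 0.25 were lower, against 6.89% of all genes, and 0 were higher. Of 3 skeletal muscle markers 2 were higher, Acta1, the skeletal actin gene that heart muscle also expresses, by 2.45 ± 0.22 (SE, adjusted p = 0.00025) and Tnnt3 by 0.69 ± 0.18 (adjusted p = 0.036). Their summed intensity was 7238 and 11438 on the 10-week KO arrays and 1482 and 1901 on the 10-week WT arrays, and 6747 and 6206 in 4-week KO hearts and 3296 and 2617 in 4-week WT hearts. Tnnt3 and the fast myosin gene Myh4 were at the olfactory receptor level, and Myh4 differed by 0.06 ± 0.14. Of 3 mesothelial markers 0 were called. The cartilage markers Acan and Matn1 were at the olfactory receptor level, while Comp, which is also made in fibrous tissue, was 2.29 ± 0.24 higher. The part of these cell types in the collagen differences was not tested.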

How the data were processed

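The deposited value table holds 1 intensity per probe set and array. Per the submitters' processing notes, the authors used RMA and GCOS 1.3 to obtain these intensities. RMA subtracts background, quantile-normalizes and summarises the probes of a set. The values were on a linear scale, and log2 was taken here. Of 45101 probe sets, 64 controls were left out, 34945 had 1 gene symbol in the platform annotation, 932 several and 9160 none, and only the first kind was used. A gene was read from its brightest probe set on average, which gave 18193 genes. limma 3.58.1 in R 4.3.3 fitted 4 group means over all 8 arrays (lmFit, eBayes, two-sided), with 5 contrasts and Benjamini-Hochberg adjustment over all genes. This fit leaves 4 residual degrees of freedom, and the median SE of a difference was 0.15, which with 2 arrays per group limits the precision. The table holds no detection calls. The steps were tested on simulated data.

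Samples were grouped by the genotype and age in their labels. Every collagen gene was counted, with values per array for genes called between genotypes or in the change between ages and for the brightest gene of each class, and with differences for genes past 2-fold in any contrast or with a further probe set of opposite sign. A value of Col10a1, Col12a1 and Col23a1 was added after it was seen. Listed processing genes were named if called, up to 4 per list. The collagen genes, the lists and the tests were chosen with earlier results of these data known. The alternatives were 12 processing settings and the omission of each of the 8 arrays. Listed genes with no single-gene probe set (Fkbp10, Adamts2, Adamts14, Loxl2 and Itga11) were not analysed here, and the values of the deleted gene itself are not reported here.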

Additional observations from a re-analysis of the deposited data

Results flagged for a closer look

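For 4 collagen genes the difference between KO and WT hearts itself differed between the ages, by limma's test of the difference of the differences. The KO minus WT difference at 10 weeks exceeded that at 4 weeks by 3.05 for Col8a1, 1.97 for Col5a2, 1.73 for Col3a1 and 1.71 for Col1a1. Col8a1 and Col5a2 were higher at 10 than at 4 weeks in KO hearts, by 1.80 and 0.69. In WT hearts they changed by -1.24, which was not called, and -1.27. Col3a1 and Col1a1 differed little between the ages in KO hearts, at -0.34 and -0.40, and were lower at 10 weeks in WT hearts, at -2.08 and -2.11. Groups of 2 arrays are too small for a check of single arrays against their group.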

How the results depend on the processing

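Over 20 alternatives none of the 38 gene results followed, those called or near the threshold, reversed. Genes near 0 were not among them: the 10-week difference of Col6a3 was 0.22 without 10-week WT array 2, and without 10-week WT array 1 that of Col9a3 was 0.15 and that of Col25a1 0.21. Of 36 called gene results, 12 kept their call under every alternative that could be run; at 10 weeks these included Col8a1, Col5a2, Col1a1, Col3a1, Col14a1 and Col1a2. Of 747 gene values, 597 kept direction and call, 138 lost the call and 12 gained it. The count of collagen genes higher in KO hearts at 10 weeks was 17 with every probe set tested singly, and the count with a larger difference at 10 than at 4 weeks was 9. In KO hearts the count higher at 10 than at 4 weeks was 6 with probe sets singly and 1 with arrays centred on their medians or with 16 added before the logarithm. The count lower there was 3 with a mean over each gene's probe sets, with centring or with 16 added. In WT hearts the count lower was 6 with probe sets singly, 5 with a mean over each gene's probe sets or with trend and robust settings, 1 with 16 added and 0 with only the groups compared. For the processing genes the count higher was 14 with probe sets singly and the count lower 0 with only the groups compared. The cause was not tested.

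Omission of each array in turn gave 6 to 12 collagen genes higher in KO hearts at 10 weeks and 0 to 9 with a larger difference at 10 weeks. Between the ages it gave 1 to 6 higher and 0 to 9 lower in KO hearts, and 0 to 5 higher and 1 to 14 lower in WT hearts. For the processing genes it gave 5 to 14 higher and 0 to 4 lower. The counts over all genes also moved with the array left out, so these ranges are not particular to collagen or processing genes. An array left alone in its group is assumed to vary like the other groups.

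The labels number the mice 1 and 2 in each group, and nothing says that equal numbers pair mice. Deviations from the group means of same-numbered KO and WT arrays correlated at 0.30 at 4 weeks and 0.23 at 10 weeks. With the number as a replicate block, 11 collagen genes were higher in KO hearts at 10 weeks, 5 had a larger difference at 10 weeks, and 13 in WT hearts and 8 in KO hearts were lower at 10 than at 4 weeks. For KO against WT at 4 weeks the count was 0 with this block. Over all genes the block also raised the counts. At 10 weeks 1287 genes were higher in KO hearts against 945 without it, and 333 against 160 had a larger difference. At 10 against 4 weeks, 125 against 12 were lower in WT hearts and 1806 against 1286 in KO hearts.

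The olfactory receptor level is a description of dim probe sets and not a detection limit. With 2 mice per group, 1 litter per age and whole hearts, litter, age and the share of cell types cannot be told apart.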
